A study of Mus musculus with 3 samples.

Results

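The 10 genes described here move cholesterol out of the cell, store it as ester or free it from the lysosome. They were listed by symbol, with earlier results of these data known. All 10 were found once each among the 32285 genes of the count tables. Abca1 and Abcg1 encode transporters that hand cholesterol to lipoprotein particles outside the cell. Nr1h3 and Nr1h2 encode the liver X receptors (LXR) alpha and beta, and Mylip encodes a ubiquitin ligase that marks the LDL receptor for degradation. Soat1 encodes an enzyme that esterifies cholesterol for storage in droplets, and Nceh1 encodes a hydrolase that frees it again. Lipa encodes lysosomal acid lipase, and Npc1 and Npc2 encode the pair of proteins that pass free cholesterol out of the lysosome.

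The cells came from whole aortas, arch to iliac bifurcation, of male mice on a C57BL/6J background in which the human APOE2, APOE3 or APOE4 gene replaces the mouse Apoe gene. All 3 genotypes therefore lack mouse Apoe, and any cell that normally makes apoE makes the human isoform. From 12 weeks of age the mice ate a Western diet (42% fat, 0.2% cholesterol) for 16 weeks, and no mice on another diet were analysed here. Aortas were digested with enzymes, pooled by genotype (6 mice for APOE2, 5 for APOE3, 7 for APOE4) and made into 1 droplet library per genotype, so mice cannot be told apart and genotype cannot be told apart from library. No difference between genotypes was tested for this reason, and no p-value is given for one.

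As background, cells that take up lipoproteins break down the cholesterol esters in the lysosome and pass the free cholesterol to other membranes, where it is either esterified again or exported. Oxysterols made from excess cholesterol bind the LXR proteins, which sit on DNA together with the retinoid X receptors, and genes such as Abca1, Abcg1, Mylip and, in some cells, Nr1h3 itself are known LXR targets. Macrophages and smooth muscle cells of the artery that store more ester than they export take on the foamy look of early plaque.

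The deposited counts held 28506 barcodes, of which 26757 had at least 200 detected genes and under 20% mitochondrial transcripts. These cells held 168310501 (APOE2), 125105151 (APOE3) and 124926887 (APOE4) unique molecular identifiers (UMIs, each marking 1 captured transcript). Between 23 and 30 barcodes were shared by any pair of libraries. The cells were grouped into 24 clusters, with the 10 genes left out of the features used for this, and clusters were named from cell type markers. Clusters 0, 2, 4, 9, 12 and 13 were smooth muscle-like, clusters 5 and 6 fibroblast-like, cluster 14 macrophage-like, cluster 20 endothelial-like, cluster 18 T lymphocyte-like, cluster 16 B lymphocyte-like, cluster 21 neutrophil-like and cluster 23 erythroid-like. Cluster 2 was led by stress and immediate early genes such as Atf3 and Junb, and cluster 9 by mitochondrial genes. The other 10 clusters remained unnamed, among them cluster 19, with macrophage and smooth muscle markers together (147, 35 and 58 cells). Doublets were not removed in the main results, since the default threshold of the caller, Scrublet, marked only 1, 0 and 2 cells of the libraries. In an alternative the cells with its highest scores were left out, 9.42%, 5.39% and 6.60% of the APOE2, APOE3 and APOE4 cells. Of the unnamed clusters, 1, 3, 7 and 10 had smooth muscle markers, with Tnnt2 or Ryr2 among the leading genes or with few UMIs, and they made up 35.9%, 25.2% and 25.7% of the APOE2, APOE3 and APOE4 cells. Clusters 8, 11, 17 and 19 had smooth muscle markers together with those of another type. The macrophage-like class held 338 cells in APOE2, 94 in APOE3 and 125 in APOE4, and all 10 of its markers, Cd68 and Adgre1 among them, were detected there in each library.

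A level is given as CPM: the UMIs of a gene in a class of 1 library are added up and divided by all UMIs of the class there, times 1000000. Its 95% interval is the exact Poisson one. These intervals, and those of the ratios, cover counting error only, and they say nothing of the spread between mice. Levels of different genes are not compared with each other, since gene length and capture differ.

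Abca1 (ENSMUSG00000015243) lies on the minus strand of chromosome 4 from 53030787 to 53159895 in GRCm38, and 1 protein-coding transcript is annotated. In the macrophage-like cells its level was 333 CPM for APOE2 (interval 316 to 351), 218 for APOE3 (191 to 247), and 202 for APOE4 (179 to 226), a mean of 251 CPM with an SD of 71.7 over the 3 libraries. The neutrophil-like class had a higher mean of 297 CPM, but its range of 118 to 500.3 CPM overlapped that of the macrophage-like class, and it rested on 331 UMIs. The order then ran from endothelial-like (89.1 to 166 CPM) and fibroblast-like (82.7 to 121) over the B and T lymphocyte-like classes to smooth muscle-like cells, at 17.8, 9.15 and 15.7 CPM in APOE2, APOE3 and APOE4. The endothelial-like and fibroblast-like ranges overlapped, while the macrophage-like range lay above both. In the erythroid-like cells 1 UMI was found in all 3 libraries together.

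The transcription start of Abca1 is shown here because Abca1 is the classical LXR target among these genes and differed between libraries in several classes. The window holds the 250 bases before the RefSeq start, chr4:53159896-53160145 on the minus strand of GRCm38.p6, and the capitals mark the stretch closest to a pair of AGGTCA repeats spaced by 4 bases (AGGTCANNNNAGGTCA), the kind of element that LXR is known to bind.
Abca1: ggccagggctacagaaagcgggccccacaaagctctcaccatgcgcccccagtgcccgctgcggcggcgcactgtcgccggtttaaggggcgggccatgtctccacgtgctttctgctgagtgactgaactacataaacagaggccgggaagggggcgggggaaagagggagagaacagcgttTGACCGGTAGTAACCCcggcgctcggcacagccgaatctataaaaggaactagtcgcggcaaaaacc
Read on the opposite strand, the marked stretch differed from the pair of repeats at 3 of its 12 fixed bases and lay 67 to 52 bases before the start. Of all 32851 promoter windows in the table, searched on both strands, 18.5% held a stretch that was as close, so such a match is common. In the same windows of the other members found there, the closest stretches were as follows, written in the direction of the repeats with matching bases in capitals.
Abca1: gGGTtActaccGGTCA
Nr1h3: AGGTCccggcAcGgCc
Nr1h2: AGtTCcggaaAGtTCt
Lipa: AGccCAgcccAGGcCt
Soat1: AGGaCcaccaAtGgCA
Npc2: ActgCcgaggcGGTCA
Nceh1: cGGgCtcgccAGGTtg
Mylip: cGGgCgacagcGGgCt
The stretches of Nr1h3, Nr1h2, Lipa and Soat1 differed at 4 bases, as close as 70.6% of all windows, those of Npc2 and Nceh1 at 5, and that of Mylip at 6. The table held 8 of the 10 genes. These letters describe the windows alone, and binding was not measured.

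Abcg1 (ENSMUSG00000024030, chromosome 17, 31057675 to 31117988, plus strand) encodes the transporter that loads cholesterol onto particles of high density. Its level in the macrophage-like cells was 104 CPM for APOE2 (interval 94.6 to 115), 19.6 for APOE3 (12.3 to 29.7), and 26.6 for APOE4 (18.8 to 36.5), so APOE2 stood apart and the other two overlapped. T lymphocyte-like cells had the highest mean level, 65.2 CPM with an SD of 17.9, followed by neutrophil-like, macrophage-like and B lymphocyte-like cells, and each of these neighbours overlapped the next in range. Fibroblast-like cells (0.469 to 3.0 CPM) and smooth muscle-like cells (0.472 to 1.65 CPM) came last but for the erythroid-like class, in which no UMI was found.

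The LXR genes had different patterns. Nr1h2 (LXR beta, ENSMUSG00000060601, chromosome 7, 44549616 to 44553951, minus strand) was the one member with its highest mean in smooth muscle-like cells, at 73.7, 80.0 and 65.9 CPM in APOE2, APOE3 and APOE4, a range above that of every other class but the T lymphocyte-like one, which reached 70.2 CPM on 78 UMIs in all. In macrophage-like cells it stood at 45.9, 41.9 and 41.3 CPM. Nr1h3 (LXR alpha, ENSMUSG00000002108, chromosome 2, 91184061 to 91202834, minus strand) had its highest mean in fibroblast-like cells, at 28.6, 17.0 and 15.4 CPM, where the range overlapped those of the endothelial-like and macrophage-like cells. Its smooth muscle-like level was 6.80, 6.06 and 4.85 CPM. The counts of Nr1h3 were low, with 100 UMIs in all macrophage-like cells together, and its intervals are wide for that reason.

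Mylip (ENSMUSG00000038175, chromosome 13, 45389742 to 45412022, plus strand) was at 161, 92.8 and 139 CPM in the macrophage-like cells of APOE2, APOE3 and APOE4, and neutrophil-like and endothelial-like cells overlapped that range. Soat1 (ENSMUSG00000026600, chromosome 1, 156424525 to 156474331, minus strand) was at 99.9, 79.4 and 63.7 CPM in macrophage-like cells and at 18.0, 19.6 and 17.6 in smooth muscle-like cells. Nceh1 (ENSMUSG00000027698, chromosome 3, 27182965 to 27284608, plus strand) was at 86.8, 48.2 and 60.2 CPM in macrophage-like cells and between 7.09 and 10.7 CPM in fibroblast-like and smooth muscle-like cells. Leaving the erythroid-like class aside, Soat1 had its lowest mean in smooth muscle-like and Nceh1 in fibroblast-like cells. Both had their highest mean in neutrophil-like cells, with ranges that overlapped the macrophage-like one. For Nceh1 this order rested on APOE4, where 5 UMIs gave 118 CPM (38.4 to 276) in neutrophil-like cells. In APOE2 and APOE3 these cells stood at 63.0 and 34.0 CPM, below the macrophage-like cells.

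The lysosomal genes all had their highest mean in macrophage-like cells, and in each case the range lay clear of the next class by mean. Neutrophil-like cells reached 142 CPM for Lipa and 40.2 CPM for Npc1 in a library, on 36 and 26 UMIs in all, which overlapped the macrophage-like range. Lipa (ENSMUSG00000024781, chromosome 19, 34492318 to 34527474, minus strand) was at 182, 119.5 and 101 CPM there and between 67.4 and 85.3 CPM in fibroblast-like cells. Npc2 (ENSMUSG00000021242, chromosome 12, 84754562 to 84773152, minus strand) was at 858, 644 and 531 CPM in macrophage-like cells, between 367 and 400.2 in fibroblast-like cells and between 114 and 131 in smooth muscle-like cells. Npc1 (ENSMUSG00000024413, chromosome 18, 12189692 to 12236400, minus strand) was at 34.6, 38.4 and 67.9 CPM in macrophage-like cells, with APOE4 highest, and between 13.9 and 14.2 CPM in smooth muscle-like cells. The plot of levels by class shows these ranges side by side.

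**Figure D1:**
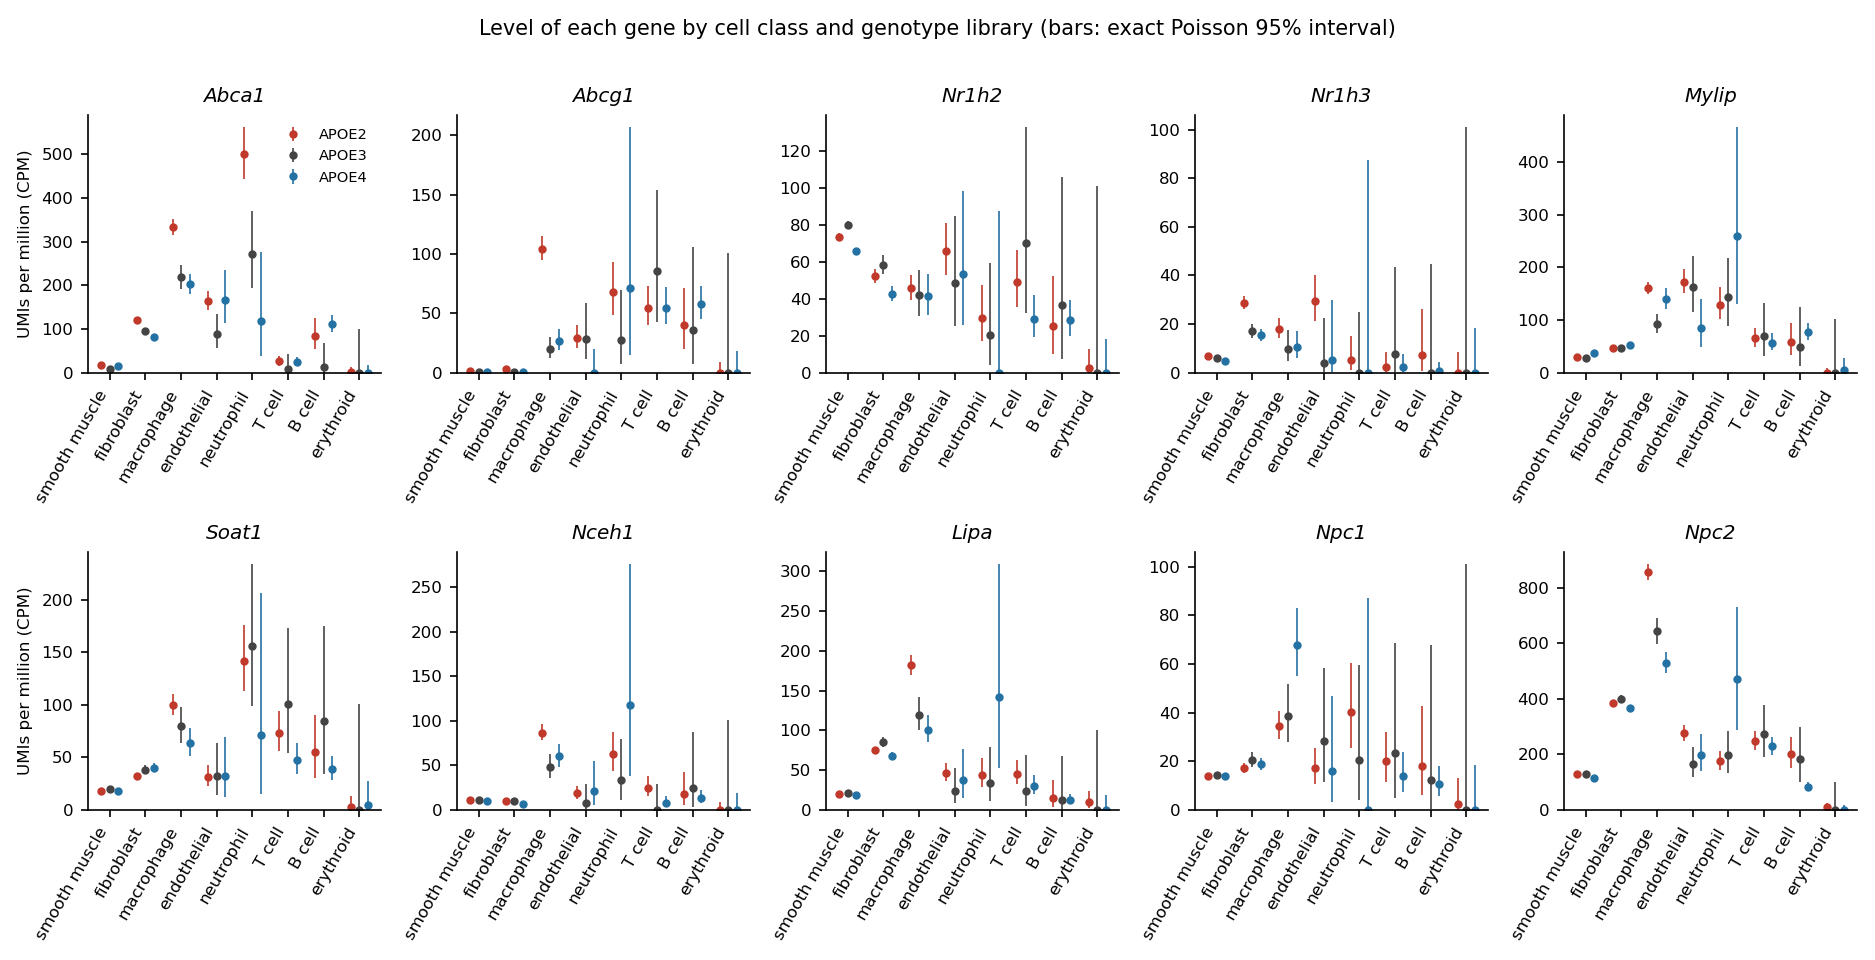
Level of the 10 genes in CPM (linear axis from 0, a separate scale for each gene) in 8 cell classes, with a point for each genotype library and bars for the exact Poisson 95% interval. Abca1, Abcg1, Lipa and Npc2 are highest in APOE2 among the macrophage-like libraries, Npc1 in APOE4, and Nr1h2 is highest in smooth muscle-like cells.

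Differences between the classes were tested with edgeR's quasi-likelihood test on the UMIs summed per library and class, with the library as a block. The test sets them against how far the class differences vary from library to library. Each library is another genotype, so this variation mixes genotype with other sources. The cells had been classed by other genes of the same cells, so these tests compare classes defined in that way. Between macrophage-like and smooth muscle-like cells 9 members were called higher in macrophages and 1 lower, where 65.6% of the 14771 genes tested were called in either direction and 32.1% were called higher. The members' median log2 difference was 2.24, against -0.08 for all genes. Abcg1 differed most, by 5.48 on the log2 scale (SE 0.26, edgeR adjusted p = 5.21e-08), followed by Abca1 at 4.09 (SE 0.20, edgeR adjusted p = 6.67e-08). The 7 others that were higher lay between 1.10 (Nr1h3) and 2.71 (Lipa), and Nr1h2 was lower, at -0.80 (SE 0.12, edgeR adjusted p = 0.00015).

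Between fibroblast-like and smooth muscle-like cells 6 members were called higher in fibroblasts and 2 lower, against 62.6% of all genes called. Abca1 was higher by 2.62 (SE 0.19), Lipa by 1.72 (SE 0.17), Nr1h3 by 1.55 (SE 0.15) and Npc2 by 1.41 (SE 0.15). Nr1h2 was lower, at -0.73 (SE 0.10). The calls of Mylip (0.42, edgeR adjusted p = 0.0357) and Nceh1 (-0.45, edgeR adjusted p = 0.0474) stood near the threshold of 0.05, and each was lost when the APOE4 library was left out. Without APOE3 the call of Mylip was lost as well, and without APOE2 that of Nceh1. Abcg1 (0.18, SE 0.32) and Npc1 (0.21, SE 0.15) did not pass.

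Between macrophage-like and fibroblast-like cells 8 members were called higher in macrophages and none lower, against 56.1% of all genes called. Abcg1 (5.29, SE 0.29) and Nceh1 (3.09, SE 0.20) differed most, and Lipa (0.99, SE 0.18) and Npc2 (0.95, SE 0.15) least. The LXR genes were those that did not pass, Nr1h2 at -0.06 (SE 0.12) and Nr1h3 at -0.45 (SE 0.20, edgeR adjusted p = 0.0776).

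**Figure D2:**
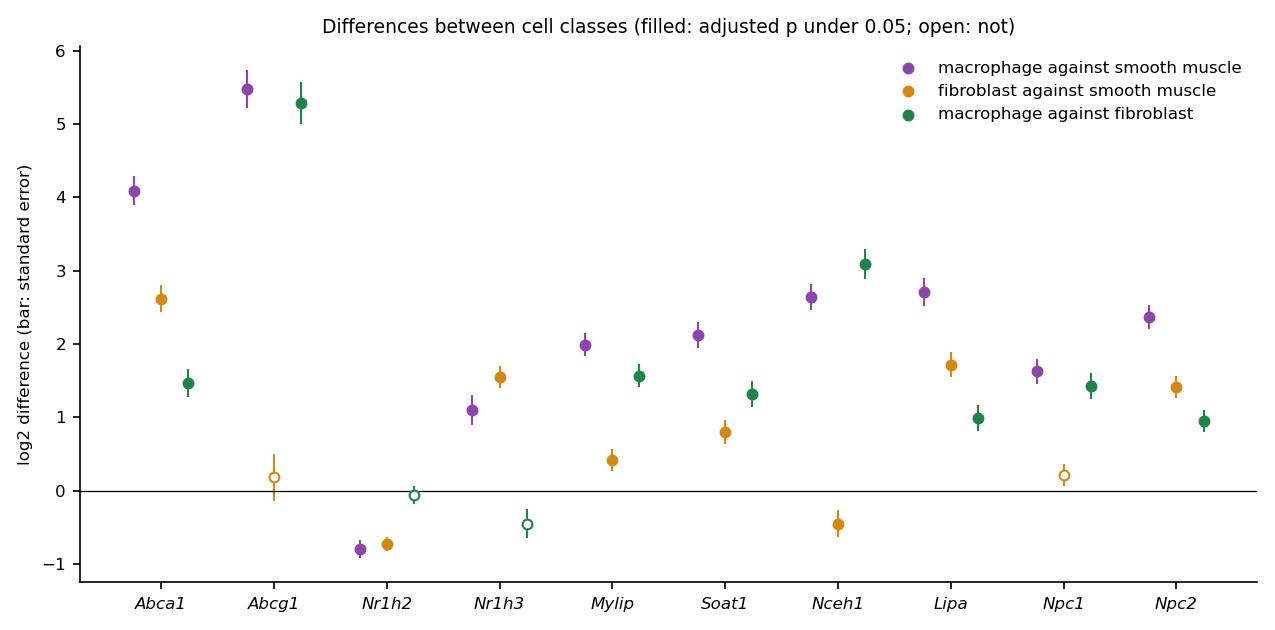
Log2 difference of each gene between pairs of cell classes from edgeR's quasi-likelihood fit over 9 sums (3 classes in 3 libraries), with bars for the standard error. Filled points passed an adjusted p of 0.05 and open points (Abcg1 and Npc1 for fibroblast against smooth muscle, Nr1h2 and Nr1h3 for macrophage against fibroblast) did not.

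The genotype libraries were compared within the 4 classes that held at least 30 cells in each library, as the log2 ratio of CPM with an exact conditional binomial 95% interval. A ratio was read only where both libraries together held at least 50 UMIs of the gene, and members past 1.5-fold were set beside the share of all genes past it in the same class. A gene could reach that minimum through its high library alone. APOE2 to APOE3 and APOE4 to APOE3 share the APOE3 library, so a high or low value in it moves both.

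In macrophage-like cells of APOE2 the transporters, Mylip and both hydrolases of cholesterol ester stood higher than in those of APOE3. The level of LXR alpha was higher as well, but on few counts and with an interval that held 0. Of the 10 members 6 were past 1.5-fold, all in this direction, where 19.9% of 8600 genes were past it in either direction. The members' median log2 ratio was 0.61, against -0.02 for all genes. Abcg1, at 104 against 19.6 CPM, was 5.31-fold higher (log2 ratio 2.41, 95% interval 1.79 to 3.10). Abca1, at 333 against 218 CPM, was 1.53-fold higher (0.61, 0.42 to 0.82). Both transporters therefore had intervals clear of 0.

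Nr1h3 was 1.82-fold higher on few counts, 74 UMIs against 11, and its log2 interval of -0.06 to 1.93 held 0. Mylip, at 161 against 92.8 CPM, had a log2 ratio of 0.79 (0.49 to 1.10) and Nceh1, at 86.8 against 48.2, one of 0.85 (0.43 to 1.29). Lipa, at 182 against 119.5 CPM, was 1.52-fold higher (0.61, 0.34 to 0.88). Npc2 at 0.41 (0.30 to 0.53) was clear of 0 but below 1.5-fold. Soat1 (0.33, -0.00 to 0.68), Nr1h2 (0.13, -0.34 to 0.63) and Npc1 (-0.15, -0.65 to 0.38) had intervals that reached 0, that of Soat1 only just. No difference in these genes was therefore read from the class as a whole.

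The macrophage-like cells of the libraries also differed in other transcripts. The 10 smooth muscle markers summed to 6376 CPM in APOE2, 14130.0 in APOE3 and 10461 in APOE4, all 10 of them detected in each, and 10.7%, 12.8% and 11.2% of the cells held at least 100 of their UMIs. The erythroid markers summed to 1901, 8.92 and 72.1 CPM in the same order. With the cells of at least 100 smooth muscle marker UMIs left out, 302, 82 and 111 cells remained and the count past 1.5-fold went from 6 to 4. The share of all genes past it is not given for this setting, so the count of 4 has no background beside it. Abca1 then had a log2 ratio of 0.48 (0.27 to 0.70) and Lipa one of 0.41 (0.13 to 0.70), both above 0 but under 1.5-fold, while Abcg1 was at 2.24 (1.59 to 2.97), Mylip at 0.74 (0.42 to 1.08) and Nceh1 at 0.64 (0.21 to 1.09). Nr1h3 was also past 1.5-fold, at 0.91 (-0.10 to 2.10) on 68 and 9 UMIs, but its interval still held 0. Soat1 was at 0.41 (0.03 to 0.81), now just clear of 0, and the intervals of Nr1h2 and Npc1 still held 0. The part of the erythroid transcripts was not tested.

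Between APOE4 and APOE3, in the macrophage-like cells, Mylip (139 against 92.8 CPM, log2 ratio 0.59, 0.24 to 0.94) and Npc1 (67.9 against 38.4 CPM, 0.82, 0.29 to 1.38) were the 2 of 9 members past 1.5-fold, against 18.8% of all genes, and Mylip lay just inside the limit at 1.50-fold, so that 5 of 10 alternatives left 1 gene past it. The members' median was -0.02. Abca1 (-0.11, -0.36 to 0.14) and Abcg1 (0.44, -0.36 to 1.27) had intervals on both sides of 0, the latter on 38 and 22 UMIs. Npc2 was lower in APOE4, at 531 against 644 CPM (-0.28, -0.43 to -0.13), and Soat1, Nceh1, Lipa and Nr1h2 had intervals that held 0.

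Between APOE4 and APOE2 the macrophage-like cells differed in 7 of 10 members past 1.5-fold, against 22.4% of all genes. Npc1 was 1.96-fold higher in APOE4 (0.97, 0.59 to 1.36). Abcg1 (-1.97, -2.49 to -1.49), Lipa (-0.85, -1.12 to -0.59), Nr1h3 (-0.77, -1.68 to 0.04), Abca1 (-0.72, -0.91 to -0.54), Npc2 (-0.69, -0.81 to -0.58) and Soat1 (-0.65, -0.99 to -0.32) were lower. The interval of Nr1h3, on 15 UMIs in APOE4 and 74 in APOE2, held 0. The members' median was -0.67, against 0.03 for all genes. When each cell was given equal weight, as the mean of the CPM of single cells, the count fell to 3, with Abca1 at -0.48 and Npc2 at -0.45. The share of all genes past 1.5-fold is not given for this measure, so the count of 3 has no background beside it. Without the cells of at least 100 smooth muscle marker UMIs, Npc2 was at -0.57 (-0.69 to -0.45), under 1.5-fold. The others listed stayed past it, with Abca1 at -0.61 (-0.81 to -0.42). Npc1, the membrane protein of the lysosomal export pair, went the opposite way to its soluble partner Npc2 in this comparison.

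**Figure D3:**
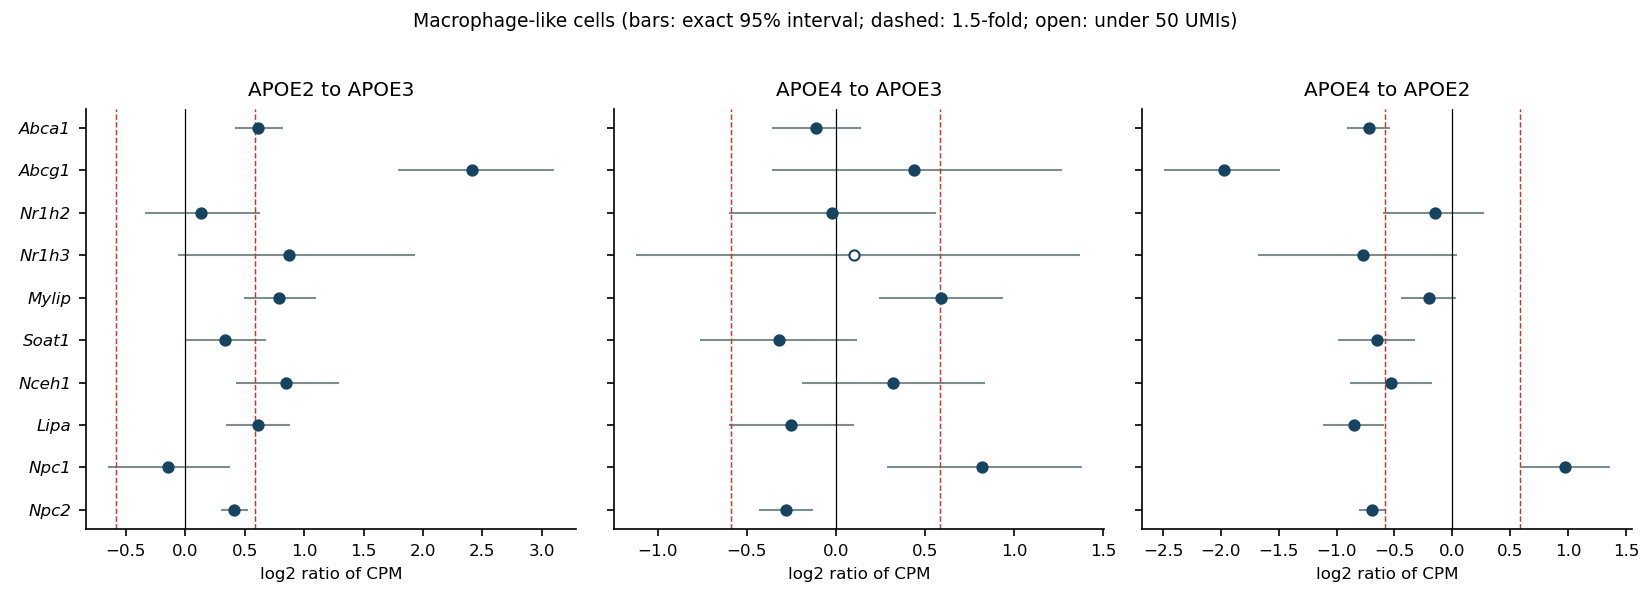
Log2 ratio of CPM between genotype libraries in macrophage-like cells for the 10 genes, with bars for the exact 95% interval, dashed lines at 1.5-fold and an open point where both libraries together held under 50 UMIs. Abcg1 stands at 2.41 for APOE2 to APOE3 and at -1.97 for APOE4 to APOE2, and Npc1 is the one gene past 1.5-fold in the opposite direction in the latter.

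The macrophage-like cells were then split by 2 lists of genes that had themselves been chosen with results of these libraries in view. A foam list (Spp1, Gpnmb, Fabp5, Trem2, Cd9 and Lgals3) and a resident list (Lyve1, Folr2, Cd163, F13a1, Cbr2 and Gas6) were counted in each cell after thinning it to 1000 UMIs, and a cell went to a list with at least 2 UMIs on it and more than 2 times those of the other list. The foam group held 25.1% of the APOE2 cells (85 of 338, exact binomial interval 20.6 to 30.1), 4.26% of the APOE3 cells (4 of 94, 1.17 to 10.5) and 10.5% of the APOE4 cells (13 of 124, 5.70 to 17.3). The resident group held 137, 48 and 52 cells, and the rest had neither or both. These are ranges of a score and not cell types, since 175, 50 and 70 cells lay within 1 UMI of a limit. Smooth muscle markers made up a median of 0.0429% to 0.0817% of the UMIs of a cell in every group and library.

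In APOE2, the one library with many foam cells, the transporters and hydrolases were high in the foam group. Abcg1 was at 220.2 CPM (197 to 246) in foam cells, 29.1 (21.1 to 39.0) in resident cells and 59.9 (46.7 to 75.5) in the rest. Nr1h3 was at 41.1 CPM (31.3 to 53.0), 5.28 (2.28 to 10.4) and 5.90 (2.37 to 12.2), so that 59 of its 74 UMIs came from the 85 foam cells. Nceh1 had a like order at 165, 36.3 and 56.5 CPM. The intervals of the foam group were clear of both others for each of these genes.

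Lipa in APOE2 was at 283 CPM in foam, 145 in resident and 107 in other cells, Npc2 at 1132, 790.0 and 612, and Abca1 at 446, 322 and 211. Soat1 was at 144, 95.1 and 52.3 CPM. Mylip ran the other way, at 115 CPM (98.1 to 134) in foam and 196 (174 to 219.8) in resident cells, and Nr1h2 (41.1, 50.2 and 46.4) and Npc1 (35.5, 33.7 and 34.6) had overlapping intervals throughout. The known LXR targets were therefore not all highest in the same cells of this library. Abca1 ran the other way between the groups of the other libraries. In APOE4 it was at 153 CPM (102 to 221) in the foam group, on 13 cells, and 279 (236 to 328) in the resident group. In APOE3 it was at 73.7 (23.9 to 172), on 4 cells, and 278 (232 to 330.1). The foam group need not hold like cells in each library. Over all macrophage-like cells Spp1 had 12514, 11 and 16 UMIs in APOE2, APOE3 and APOE4, and Gpnmb had 1554, 1 and 1. Lgals3 of the same list had 8313, 583 and 489.

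Set within the resident group, the libraries were closer for Abca1, at 322 CPM for APOE2 (interval 294 to 352), 278 for APOE3 (232 to 330.1), and 279 for APOE4 (236 to 328). Lipa there was at 145 (126 to 165), 114 (85.5 to 149) and 98.8 (73.8 to 129.5), Nr1h3 at 5.28, 6.46 and 7.60, and Nceh1 at 36.3, 43.1 and 60.8 CPM. Mylip was still apart in APOE3, at 108 CPM (79.9 to 142) beside 196 (174 to 219.8) for APOE2 and 177 (143 to 216) for APOE4, and Abcg1 was at 29.1, 2.15 and 20.9 CPM, with 1 UMI in APOE3. Npc1 was highest in APOE4 in all 3 groups, at 87.4, 58.9 and 69.6 CPM, although its intervals overlapped those of APOE3 in each of them. How far the mix of cells in each library accounts for the ratios of the whole class was not tested.

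**Figure D4:**
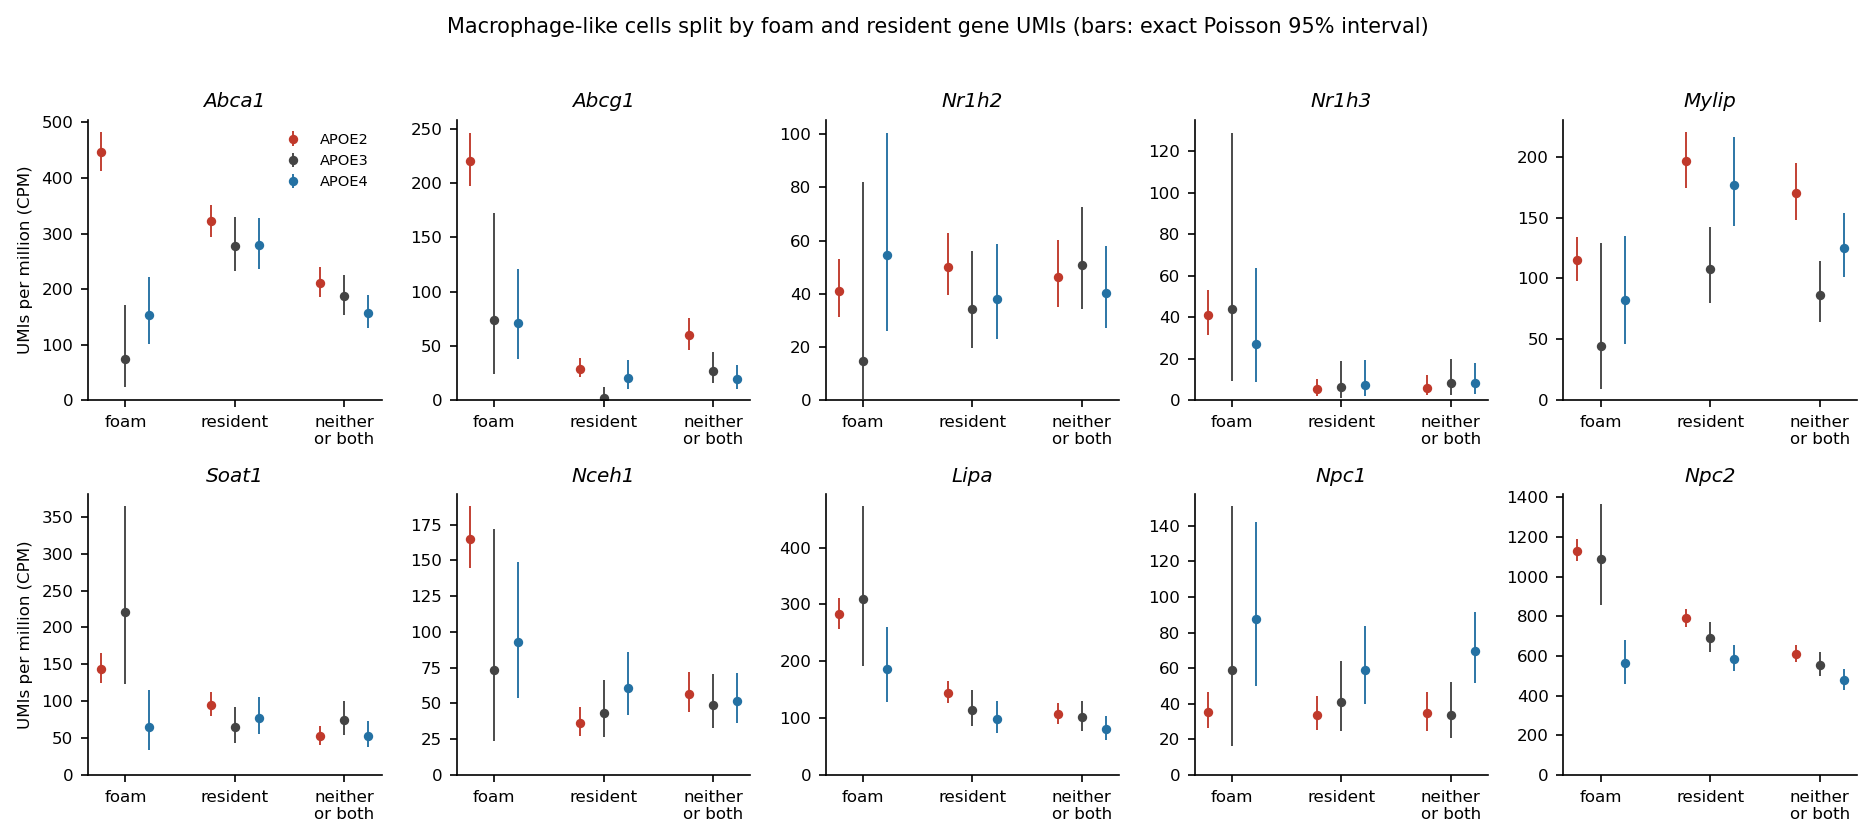
Level of the 10 genes in CPM (linear axis from 0) in macrophage-like cells grouped by foam and resident genes, with a point for each genotype library and bars for the exact Poisson 95% interval. Abcg1, Nr1h3 and Nceh1 of APOE2 are highest in the foam group, and Mylip is higher in the resident group, while the foam points of APOE3 rest on 4 cells.

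In smooth muscle-like cells, by far the largest class, the transporters were the members past 1.5-fold between libraries. Abca1 was at 17.8 CPM for APOE2 (interval 16.8 to 18.8), 9.15 for APOE3 (8.45 to 9.90), and 15.7 for APOE4 (14.8 to 16.7), so APOE3 was the low library and the intervals of all 3 were separate from each other. APOE2 to APOE3 gave a 1.94-fold ratio (log2 0.96, 0.82 to 1.10) and APOE4 to APOE3 a 1.72-fold ratio (0.78, 0.64 to 0.92). Abcg1, on 112, 32 and 65 UMIs, was at 1.65, 0.472 and 0.901 CPM, with log2 ratios of 1.81 (1.23 to 2.42) and 0.93 (0.30 to 1.59). It was found in 2.46%, 0.971% and 1.48% of the smooth muscle-like cells of APOE2, APOE3 and APOE4. The 10 macrophage markers summed to 15.2, 4.61 and 10.5 CPM in these cells, and their part in the ratios was not tested. Abca1 and Abcg1 were the 2 of 10 members past 1.5-fold in either comparison, where 9.50% of all genes were past it for APOE2 to APOE3 and 10.2% for APOE4 to APOE3.

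Between APOE4 and APOE2 only Abcg1 was past 1.5-fold in smooth muscle-like cells (-0.87, -1.34 to -0.42), against 14.0% of all genes, whose median was itself -0.11. The other 8 members had log2 ratios between -0.49 and 0.49 in the 3 comparisons of this class. The highest of these was Mylip for APOE4 to APOE3 (38.3 against 27.3 CPM, 0.49, 0.40 to 0.58) and the lowest Nr1h3 for APOE4 to APOE2 (4.85 against 6.80 CPM, -0.49, -0.69 to -0.28). Npc1 was the steadiest, with ratios of -0.03, -0.02 and 0.01.

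The Abca1 gap between APOE2 and APOE3 was not of 1 size over the clusters. Among the smooth muscle-like ones the log2 ratio was 0.95 (0.68 to 1.23) in cluster 0, 1.05 (0.82 to 1.28) in cluster 2, 0.31 (-0.01 to 0.63) in cluster 4, which was led by Rgs5 and Hox genes, 1.37 (0.73 to 2.05) in cluster 9 and 1.83 (1.17 to 2.54) in cluster 12, which was led by Dlx5 and Dlx6. Cluster 13 held 16 UMIs in all. Cluster 1, unnamed because its leading genes included the cardiac gene Tnnt2, had 1.50 (1.26 to 1.75), at levels of 38.1, 13.5 and 18.2 CPM for APOE2, APOE3 and APOE4. With the unnamed clusters 1, 3, 7 and 10 added to the class, the log2 ratio of Abca1 was 1.22 in place of 0.96 for APOE2 to APOE3 and -0.51 in place of -0.18 for APOE4 to APOE2.

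The widest gap was in cluster 15, an unnamed group of 499 cells led by Spp1, Lcn2, Vcam1 and Timp1, which kept 2 of the 10 smooth muscle markers. Abca1 was there at 75.7 CPM for APOE2 (interval 69.9 to 81.9), 13.4 for APOE3 (9.61 to 18.2), and 16.6 for APOE4 (11.9 to 22.5), a log2 ratio of 2.50 (2.04 to 2.99) for APOE2 to APOE3 and of -2.19 (-2.68 to -1.73) for APOE4 to APOE2. The UMIs of Abcg1 numbered 53, 1 and 4 in APOE2, APOE3 and APOE4. Mylip (0.76, 0.42 to 1.10) and Npc2 (0.50, 0.38 to 0.63) were also higher in APOE2 than in APOE3, and Nr1h2 (-0.00, -0.26 to 0.26), Nr1h3 (0.39, -0.23 to 1.05), Soat1 (0.11, -0.24 to 0.48), Lipa (0.26, -0.12 to 0.65), Nceh1 (-0.43, -0.99 to 0.14) and Npc1 (-0.38, -0.93 to 0.18) had intervals that held 0. In cluster 15, 300 cells came from APOE2, 100 from APOE3 and 99 from APOE4, with the median cell at 25778 UMIs.

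**Figure D5:**
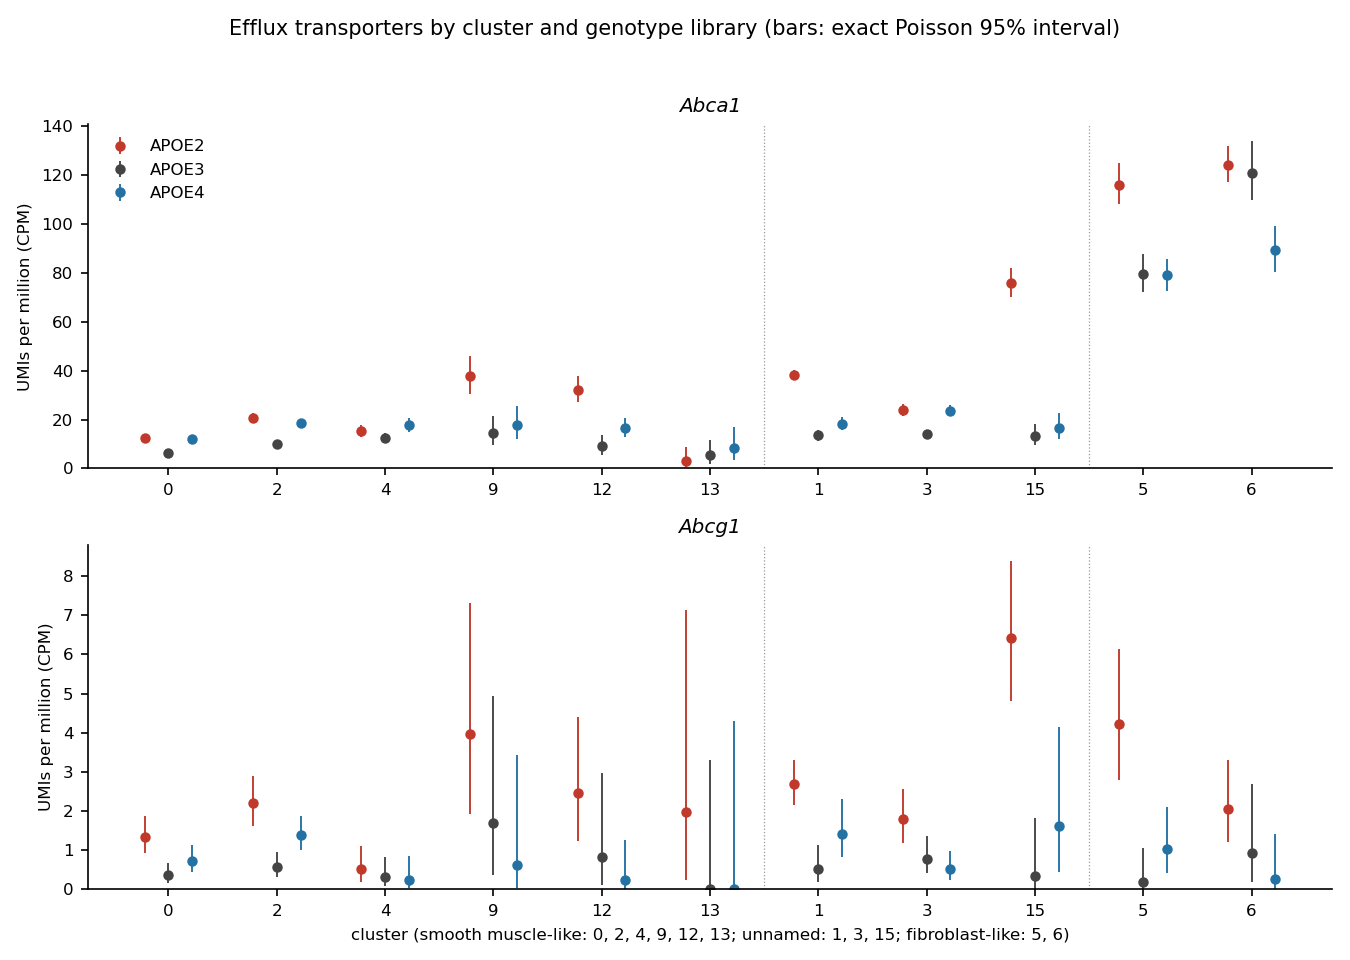
Level of Abca1 and Abcg1 in CPM (linear axis from 0) by cluster, with a point for each genotype library and bars for the exact Poisson 95% interval; dotted lines part the smooth muscle-like, the unnamed and the fibroblast-like clusters. Abca1 in cluster 15 is at 75.7 CPM in APOE2 and at 13.4 and 16.6 CPM in the others, and in cluster 6 APOE2 and APOE3 are close.

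In fibroblast-like cells the members past 1.5-fold were Nr1h3 and Abcg1. Nr1h3 was at 28.6 CPM for APOE2 (interval 26.0 to 31.5), 17.0 for APOE3 (14.3 to 20), and 15.4 for APOE4 (13.1 to 17.9), so that APOE2 was high and the other two overlapped. By cluster it was at 22.2, 16.3 and 14.9 CPM in cluster 5 and at 33.6, 18.1 and 16.3 in cluster 6. Cluster 5 held 578, 439 and 661 cells of APOE2, APOE3 and APOE4, and cluster 6 held 603, 224 and 308. The part of this mix in the class ratios was not tested. Nr1h3 was the 1 of 9 members past 1.5-fold for APOE2 to APOE3 (log2 ratio 0.75, 0.48 to 1.04), against 10.9% of all genes, a share near that background. For APOE4 to APOE3 none of 9 was past it, against 10.4%. For APOE4 to APOE2 Nr1h3 (-0.90, -1.16 to -0.63) and Abcg1 (-2.03, -3.32 to -0.92) were 2 of 10 past it, against 14.3%. Abcg1 met the minimum there mainly through APOE2, with 44 UMIs beside 8 in APOE4. Its place in this count therefore follows from its high level in APOE2.

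Abca1 in fibroblast-like cells had a ratio under 1.5-fold for APOE2 to APOE3 (121 against 95.5 CPM, 0.34, 0.22 to 0.46), and its fibroblast clusters differed. In cluster 5, led by Fmod, Inmt and Hhip, the log2 ratio was 0.54 (0.37 to 0.72), and in cluster 6, led by Opcml and Dpp4 among others, it was 0.03 (-0.14 to 0.20). Abcg1 had 44, 4 and 8 UMIs in APOE2, APOE3 and APOE4, which for APOE2 to APOE3 was below the minimum. Lipa, Npc1, Npc2, Soat1 and Nceh1 lay between -0.49 and 0.31 in the 3 comparisons of this class. Some of these ratios had intervals clear of 0, as for Lipa in APOE4 to APOE3 (-0.34, -0.49 to -0.19) and Soat1 in APOE4 to APOE2 (0.31, 0.12 to 0.50), and so did Nr1h2 in APOE4 to APOE3 (42.7 against 58.4 CPM, -0.45, -0.64 to -0.26).

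The endothelial-like class was small, with 160, 35 and 37 cells, and its counts allow little to be said. Abca1 was at 165 CPM for APOE2 (interval 144 to 188), 89.1 for APOE3 (55.9 to 135), and 166 for APOE4 (113 to 235). For APOE2 to APOE3, Abca1 (0.88, 0.25 to 1.59), Lipa (0.93, -0.27 to 2.43) and Npc2 (0.74, 0.27 to 1.24) were 3 of 6 past 1.5-fold, where 32.6% of all genes were. For APOE4 to APOE3, Abca1 (0.89, 0.06 to 1.75) and Mylip (-0.92, -1.86 to -0.05) were 2 of 3, against 30.1%, and for APOE4 to APOE2 Mylip (-1.01, -1.84 to -0.28) was 1 of 5, against 32.3%. Single cells weighed on these values. The cells with at least 100 smooth muscle marker UMIs were 12, 1 and 1 in APOE2, APOE3 and APOE4. Without them Mylip of APOE3 fell from 40 to 26 UMIs. For APOE4 to APOE3 Mylip was then at -0.56 (-1.58 to 0.41) and Abca1 at 0.54 (-0.34 to 1.45), both under the minimum of UMIs. Abca1 for APOE2 to APOE3 was at 0.64 (-0.01 to 1.36). The Mylip ratio of APOE4 to APOE3 turned to 0.26 at a Louvain resolution of 0.4 and to 0.54 by the mean of single-cell CPM. At that resolution the class was another set of cells, 756, 226 and 195 in number, with Spp1, Lcn2 and Vcam1 among its leading genes. No UMI of Abcg1 was found in APOE4, which allows up to 3 counts or 16.0 CPM, and the Poisson interval reached 19.7 CPM. The Schwann cell markers summed to 55.3 CPM in the endothelial-like cells of APOE2, 1767 in APOE3 and 1208 in APOE4, and their part in these values was not tested.

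Neutrophil-like cells numbered 128, 33 and 14, too few in APOE4 for a comparison. The class was smaller under other settings, with 56, 10 and 7 cells at a Louvain resolution of 1.6. With each cell classed by its own markers it held 53, 8 and 6 cells. The macrophage markers summed to 5316, 6315 and 3905 CPM in it, so its levels and ratios depend on how the class is drawn. Abca1 was at 500.3 CPM in APOE2 (444 to 562) and 272 in APOE3 (194 to 369.9), and its 5 UMIs in APOE4 gave 118 (38.4 to 276). For APOE2 to APOE3 this made a log2 ratio of 0.88 (0.40 to 1.40). The smooth muscle markers summed to 6311, 18578 and 1657 CPM in the neutrophil-like cells of APOE2, APOE3 and APOE4, and the neutrophil markers to 108251, 19379 and 75964 CPM. The part of either in this ratio was not tested. Npc2 was at 473 CPM in APOE4 on 20 UMIs (289 to 731), above the intervals of the other libraries. Mast cell markers summed to 7.00, 0 and 852 CPM in APOE2, APOE3 and APOE4, and their part in this level was not tested. The remaining members had overlapping intervals, but these were wide on so few cells, so the overlap says little.

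The share of cells with a UMI of a gene was counted after each cell had been thinned to 1000 UMIs. Erythroid-like cells are given beside the others, although their 6 erythroid markers summed to 795878, 935547 and 901774 CPM in APOE2, APOE3 and APOE4. Few other UMIs were left in them after thinning, so finding none of a gene there sets no background for the other classes. After thinning, Abca1 was found in 27.2% of macrophage-like cells of APOE2 (22.5 to 32.3), 18.1% of APOE3 (10.9 to 27.4) and 18.5% of APOE4 (12.1 to 26.5), against none of 68, 4 and 28 erythroid-like cells, which allows up to 5.28% in APOE2. Without thinning the shares were 79.3%, 75.5% and 71.2%, at median depths of 9623, 9484 and 9547 UMIs, and 1.47% of the erythroid-like cells of APOE2 at a median of 6201 UMIs. Abcg1 was found in 6.80% (4.36 to 10.0), 2.13% (0.259 to 7.48) and 1.61% (0.196 to 5.70) of macrophage-like cells. In smooth muscle-like cells Abca1 was found in 1.62%, 0.755% and 1.61% of the thinned cells, in the same order, and in 20.2%, 16.1% and 21.4% without thinning.

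Over all cells of a library, named or not, Abca1 was at 46.5 CPM for APOE2 (interval 45.5 to 47.6), 19.4 for APOE3 (18.6 to 20.2), and 27.0 for APOE4 (26.1 to 27.9). The macrophage-like cells, 2.87%, 1.40% and 1.52% of the cells, held 17.6%, 10.1% and 8.54% of its UMIs. For Abcg1 these shares were 44.9% (41.7 to 48.1), 18.8% (12.2 to 27.1) and 13.7% (9.89 to 18.3). The whole-aorta level of Nr1h2, by contrast, came almost wholly from other cells, with 1.66%, 0.498% and 0.792% in macrophages. In such sums more cells of a type and more RNA per cell cannot be told apart.

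The rest of the pathway was taken by lists in the macrophage-like cells. Of 11 other LXR target genes in the files 8 had enough UMIs for APOE2 to APOE3, and 4 were past 1.5-fold higher and 1 lower, with a median log2 ratio of 0.60, where 19.9% of all genes were past it in either direction. Pltp, which transfers phospholipid between lipoproteins, was at 571 against 357 CPM (0.68, 0.52 to 0.83), Lpl, a lipase that frees fatty acids from lipoproteins, at 258 against 138 (0.90, 0.65 to 1.15) and Arl4c, a small GTPase, at 129 against 64.2 (1.00, 0.65 to 1.38). Mertk, a receptor for the uptake of dying cells, was lower, at 157 against 262 CPM (-0.74, -0.94 to -0.53). Cd5l, a secreted macrophage protein, had 308 UMIs in APOE2, none in APOE3 and 1 in APOE4. Cd5l therefore entered the counts of this list through APOE2 alone. For APOE4 to APOE2, 6 of these 8 genes were past 1.5-fold lower and none higher, with a median of -0.68, and for APOE4 to APOE3 1 of 6 was higher and 1 lower.

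Of the 20 lysosomal genes outside the members, 5 were past 1.5-fold higher in APOE2 than in APOE3 macrophages and none lower, with a median of 0.17, a share near the 19.9% of all genes. The cathepsins Ctsl (1219 against 243 CPM), Ctsd (1733 against 607) and Ctss (1677 against 709) and Atp6v0d2, a subunit of the proton pump (81.5 against 7.14), were among them, while Ctsb (2993 against 2092 CPM, 0.52, 0.45 to 0.58) was not past the limit. For APOE4 to APOE2, 8 of 20 were lower and none higher. Among 6 genes of ester and droplet metabolism with enough counts, 2 were higher and 1 lower for APOE2 to APOE3, and Lipe, a neutral lipase, was the lower one at 11.6 against 26.8 CPM (-1.20, -1.89 to -0.50). Plin2, the coat protein of lipid droplets, was at 853 CPM in APOE2, 542 in APOE3 and 316 in APOE4.

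Few LXR partners and coregulators differed, with none of 7 higher and 1 lower for APOE2 to APOE3 and a median of -0.13, and the lower one, the retinoid receptor gene Rxra, had a log2 ratio of -0.63 (-1.31 to 0.09). The 4 other efflux transporters and receptors with enough counts had none past 1.5-fold and a median of -0.28. Cav1, which coats caveolae, was at 39.9 against 51.7 CPM (-0.37, -0.81 to 0.08). Of 9 sterol transfer and oxysterol genes 2 were higher and none lower, and Osbpl9 was at 164 against 228 CPM (-0.48, -0.69 to -0.26). Ch25h, which makes 25-hydroxycholesterol, was at 47.6 CPM in APOE2, 20.5 in APOE3 and 63.0 in APOE4, and Gramd1b, which carries sterol from the plasma membrane, was at 35.1 against 16.9 (1.05, 0.35 to 1.82). The foam list had 5 of 6 genes higher in APOE2 than in APOE3, with a median of 3.77. The resident list had none higher and 1 of 6 lower, with a median of -0.23. Both lists, like the others, had been chosen with results of these libraries in view, so their counts are not an independent result. All these lists stand beside 19.9% of all genes past 1.5-fold for APOE2 to APOE3 and a median of -0.02, and for APOE4 to APOE3 and APOE4 to APOE2 beside 18.8% and 22.4%.

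In the test between classes, 15 of the 20 lysosomal genes were called higher and 1 lower in macrophage-like than in smooth muscle-like cells, with a median log2 difference of 1.17, and 5 of the 8 other LXR targets tested were higher and 3 lower, with a median of 1.05. For the 7 LXR partners these counts were 3 and 0. Of 9 ester and droplet genes 3 were higher and 3 lower, of 11 sterol transfer and oxysterol genes 7 and 3, and of the 6 other efflux genes 3 and 3. Over all genes tested 32.1% were called higher and 33.5% lower in this comparison.

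Over the 24 sums of 8 classes in 3 libraries, the genes whose log2 level ran most like a member were taken from 13903 genes. This is a description that shares libraries and cells. The erythroid-like sums, in which the members had few or no UMIs, are among the 24, and their part in the correlations was not tested. Litaf, Atp7a and P2rx4 were nearest to Abca1 (Pearson's r 0.94, 0.93 and 0.93) and Traf1, Chd7 and Rin3 nearest to Abcg1 (0.94, 0.92 and 0.92). Itgav was nearest to Npc1 (0.98), Ptpra to Npc2 (0.97), Pcyt1a to Lipa (0.94), Ssh2 to Soat1 (0.97), Zfp516 to Nceh1 (0.94), Diaph2 to Mylip (0.96), Acot9 to Nr1h2 (0.99) and Nqo2 to Nr1h3 (0.88). Among the members Lipa and Npc2 ran closest together (0.94), and Abcg1 and Nr1h3 least so (0.03). The pair of transporters, Abca1 and Abcg1, had 0.51.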

How the data were processed

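Whole-aorta cells of 3 pools, 1 per genotype, were measured as droplet single-cell libraries. The authors deposited raw UMI counts per gene and barcode, made with Cell Ranger (version 7.0.1 per the file headers) on mm10. Cells with at least 200 genes and under 20% mitochondrial UMIs were kept, transformed and integrated with sctransform 0.4.2 and Seurat 5.3.0 in R 4.3.3 (3000 features, 30 components), and clustered by the Louvain method at resolution 0.8, with the 10 genes and the pathway lists left out of the features. A cluster was named for a type other than smooth muscle where at least 3 of its markers were detected in 10% of the cells and raised 2-fold. Leading genes, depth or smooth muscle markers could go against this. A cluster with no such type was smooth muscle-like where at least 8 of 10 smooth muscle markers kept 50% of their level in all cells. Leading genes or depth could go against this too. UMIs were summed per class and library. Classes were compared with edgeR 4.0.16 (quasi-likelihood, TMM, library as block, Benjamini-Hochberg over all genes tested). Ratios between libraries carry exact intervals from scipy 1.17.1. Scripts were tested on simulated data. Alternatives were other cell filters, doublet removal, resolutions, class definitions, scalings and tests (DESeq2 1.42.0). All 10 genes are named. Of each list, the 3 with the highest macrophage CPM and the 2 with the largest APOE2 to APOE3 ratio could be named. The genes and lists were chosen with earlier results of these data known. Promoter sequences are from RefSeq on GRCm38.p6, and gene positions from GENCODE on GRCm38.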

Additional observations from a re-analysis of the deposited data

How the results depend on the processing

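No paired analysis was possible between genotypes because each has 1 library, and spread between mice cannot be measured here. The share of all genes past 1.5-fold is not given for the alternatives, so their counts below have no background beside them. In macrophage-like cells the count past 1.5-fold for APOE2 to APOE3 was 4 to 6 over 10 alternatives, with Abcg1 at 1.77 to 2.44 and Abca1 at 0.39 to 0.74. For APOE4 to APOE3 the macrophage count of 2 was 1 with at least 500 genes and under 10% mitochondrial UMIs, with at least 1000 UMIs, at resolutions 0.4 and 1.6, and with the members kept among the clustering features. For APOE4 to APOE2 it was 3 in place of 7 by the mean of single-cell CPM. In fibroblast-like cells the APOE4 to APOE3 count of 0 was 1 with the highest Scrublet scores removed or with cells classed by their own markers, the APOE4 to APOE2 count of 2 was 1 with those scores removed, with the members kept or without cells of 100 smooth muscle marker UMIs, and the APOE2 to APOE3 count of 1 was 2 at both resolutions. In smooth muscle-like cells the APOE4 to APOE2 count of 1 was 2 at resolution 0.4, by own markers, with the members kept and with the unnamed clusters 1, 3, 7 and 10 added (chosen after seeing the data), and 3 at resolution 1.6. In endothelial-like cells the APOE4 to APOE3 count of 2 was 0 at resolution 0.4 and without the cells of 100 smooth muscle marker UMIs and 1 by single-cell means, and the APOE4 to APOE2 count of 1 was 3 at resolution 0.4, with the members kept and without those cells, and 2 at resolution 1.6 and by single-cell means. Mylip for APOE4 to APOE3 there reversed from -0.92 to 0.26 at resolution 0.4 and to 0.54 by single-cell means. The cause was not tested.

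Between classes, with no replicate block (the library left out of the design), the genes called higher, macrophage against smooth muscle, were 4589 and the genes called lower, macrophage against smooth muscle, 4739. The genes called higher, fibroblast against smooth muscle, were 4714 and the genes called lower, fibroblast against smooth muscle, 3489. The genes called higher, macrophage against fibroblast, were 3761 and the genes called lower, macrophage against fibroblast, 4036. The calls of Mylip and Nceh1 between fibroblast-like and smooth muscle-like cells were lost without the block, and the other 28 member tests stayed on their side of the threshold.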
